A study of Rattus norvegicus with 12 samples.

Results

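The genes described here are 10 rat genes that act on haem, iron and oxidative stress: Hmox1, Slc40a1, Fth1, Tfrc, Nqo1, Gclc, Gclm, Txnrd1, Srxn1 and Slc7a11. They were taken by symbol from a deposited table of 30562 genes, and each symbol had 1 row. The table holds poly(A) RNA counts from 12 sciatic nerve stumps of rat, 3 in each of 4 groups. VP4:2 stumps had a truncated-cone conduit of the 4:2 kind that carried verteporfin (written vertaporfin in the labels), a porphyrin-type photosensitiser also known to block the binding of the coactivator YAP to its TEAD partners. CC4:2 stumps had the same kind of conduit without the drug, CC4:4 stumps had a conduit of the 4:4 kind, and Control stumps were labelled only as controls. The stated purpose was to study how these conduits relieve nerve pain, with the verteporfin group as a test of YAP. The labels gave no strain, age, sex, time after surgery or number of animals, and left unsaid how control stumps were treated and what 4:2 and 4:4 measure. Whether the 3 samples of a group came from separate animals was also unsaid, so the p-values rest on differences among these samples that may be technical in part.

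As background, haem set free from dying cells is opened by haem oxygenase 1, which releases iron, carbon monoxide and biliverdin. The iron is stored in ferritin shells or leaves the cell through ferroportin, and cells take up more of it through the transferrin receptor. The transcription factor NRF2 (gene Nfe2l2), freed from its inhibitor KEAP1 by oxidants and electrophiles, turns on genes for glutathione and thioredoxin chemistry and also Hmox1 and the ferritin genes, many of which BACH1 holds down until haem binds it. In injured nerve, macrophages clear myelin and blood and are known as a main site of haem oxygenase 1 and ferroportin.

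Depth was similar across libraries, with 13763067 to 18632280 counts per library. The nerve label was checked with 10 Schwann cell and myelin markers, all of them detected in every group, whose summed level was 13500 to 20100 CPM (reads of a gene per library, scaled by TMM to a common total) in VP4:2, 14900 to 38300 in CC4:2, 2890 to 3680 in CC4:4 and 509 to 5010 in Control. The lowest of these was Control replicate 1, which stood apart from the other controls. Replicates 1 and 2 of each group were sequenced on a NovaSeq X Plus and replicate 3 on a DNBSEQ-T7. With 1 library a group the DNBSEQ-T7 libraries alone allow no test, so values from the NovaSeq libraries alone are given where they end a call.

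NRF2 is known to bind antioxidant response elements, which can lie in a promoter or far from it, so a search of promoters is a description only. RefSeq promoters of the GRCr8 build were matched by symbol for 8 of the 10 genes, Hmox1 and Fth1 being the exceptions, and searched on both strands over the 250 bases before the start. The core TGACNNNGC was present in 2 of the 8, Gclm and Txnrd1, and in 10.1% of all 33469 promoters in the table. In both, the core was followed by an A, as in 2.42% of promoters. A gene was counted here if any of its promoters matched. The percentages are shares of single promoters, so gene counts and percentages are not like for like. A match to the AP-1 motif TGANTCA, present in 6.34% of promoters, was found in Srxn1. No promoter of the 8 held the ATF4 composite motif TGATGNAA, which 3.4% of promoters held. The 3 windows are shown because Txnrd1 and Srxn1 fell together in CC4:2 stumps below whereas Gclm did not. Capitals mark the match, which for Gclm and Txnrd1 is the core with its A on the reverse strand, and each sequence is read 5′ to 3′ along its gene.
Gclm, chr2:213031942-213031991, plus strand, match 173 to 164 bases before the start: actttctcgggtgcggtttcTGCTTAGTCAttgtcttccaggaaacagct
Txnrd1, chr7:22755954-22756003, minus strand, match 79 to 70 bases before the second of 2 starts in the table: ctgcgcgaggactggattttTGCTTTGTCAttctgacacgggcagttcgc
Srxn1, chr3:161064730-161064776, plus strand, match 62 to 56 bases before the start: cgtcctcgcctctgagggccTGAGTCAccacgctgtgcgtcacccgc

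For 9 of the 10 genes the lowest group mean was in CC4:2, although for Fth1 it was level with VP4:2 at 4920 CPM. Fth1, Nqo1 and Slc40a1, which are among the 9, were not called in any comparison. The share of all tested genes with their lowest mean in CC4:2 was not counted, so the 9 are a description only. In CC4:2 against Control, 6 of the 10 fell: Hmox1, Tfrc, Slc7a11, Srxn1, Txnrd1 and Gclc, by 12.2-fold, 12.8-fold, 5.09-fold, 4.08-fold, 2.00-fold and 1.55-fold. None of the 10 rose. A difference was called where edgeR's quasi-likelihood test, adjusted over 15712 tested genes by Benjamini-Hochberg, gave a p under 0.05, and by that rule 23.2% of all tested genes were lower and 20.3% higher in CC4:2 than in Control. The median log2 fold change of the 10 genes was -0.89, and that of all tested genes was -0.05.

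Set against CC4:4, the CC4:2 stumps had 5 of the 10 genes lower (Hmox1, Tfrc, Srxn1, Txnrd1 and Gclc) and none higher. Of all tested genes, 20.7% were lower and 18.5% higher in that comparison. The median was -1.02 for the 10 genes and 0.01 for all tested genes. These comparisons share the CC4:2 libraries, so they are not independent of each other. With the NovaSeq libraries alone, 5 of the 10 were called against Control and 3 against CC4:4. Of all 15800 genes tested in that fit, 3220 and 3253 were called.

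VP4:2 stumps differed from both CC4:2 and Control stumps. Against CC4:2, 3 of the 10 rose, Hmox1 by 3.26-fold, Slc7a11 by 5.52-fold and Gclc by 1.54-fold, and none fell, where 5.23% of all tested genes were higher and 0.999% lower. The median was 0.56 for the 10 genes and -0.03 for all tested genes. Without CC4:2 replicate 2, VP4:2 replicate 1 or VP4:2 replicate 3, 1 of the 10 was called, and that was Hmox1. All genes called in these fits numbered 548, 550 and 466. A fit of only the 6 libraries compared also called 1 of the 10, and 1156 of the 15049 genes tested in it. Against Control, Hmox1, Tfrc and Txnrd1 fell and none rose, where 9.57% of all tested genes were lower and 9.3% higher. Their median was -0.29, with -0.04 for all tested genes. In the NovaSeq libraries alone, 0 of the 10 genes were called in either of these comparisons. Of all 15800 genes tested in that fit, 202 were called against CC4:2 and 19 against Control, so few calls were to be had. The NovaSeq fold changes of Hmox1 and Tfrc were close to those of all libraries, as given below.

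CC4:4 against Control gave no call, with 0% of all tested genes higher and 0% lower by edgeR. At an unadjusted p under 0.05 there were 830 genes, and DESeq2 called 11 and limma-voom 0. Without Control replicate 1 the edgeR count was 296 genes, with 0 of the 10 genes described here among them. The medians were -0.13 for the 10 genes and -0.01 for all tested genes.

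**Figure D1:**
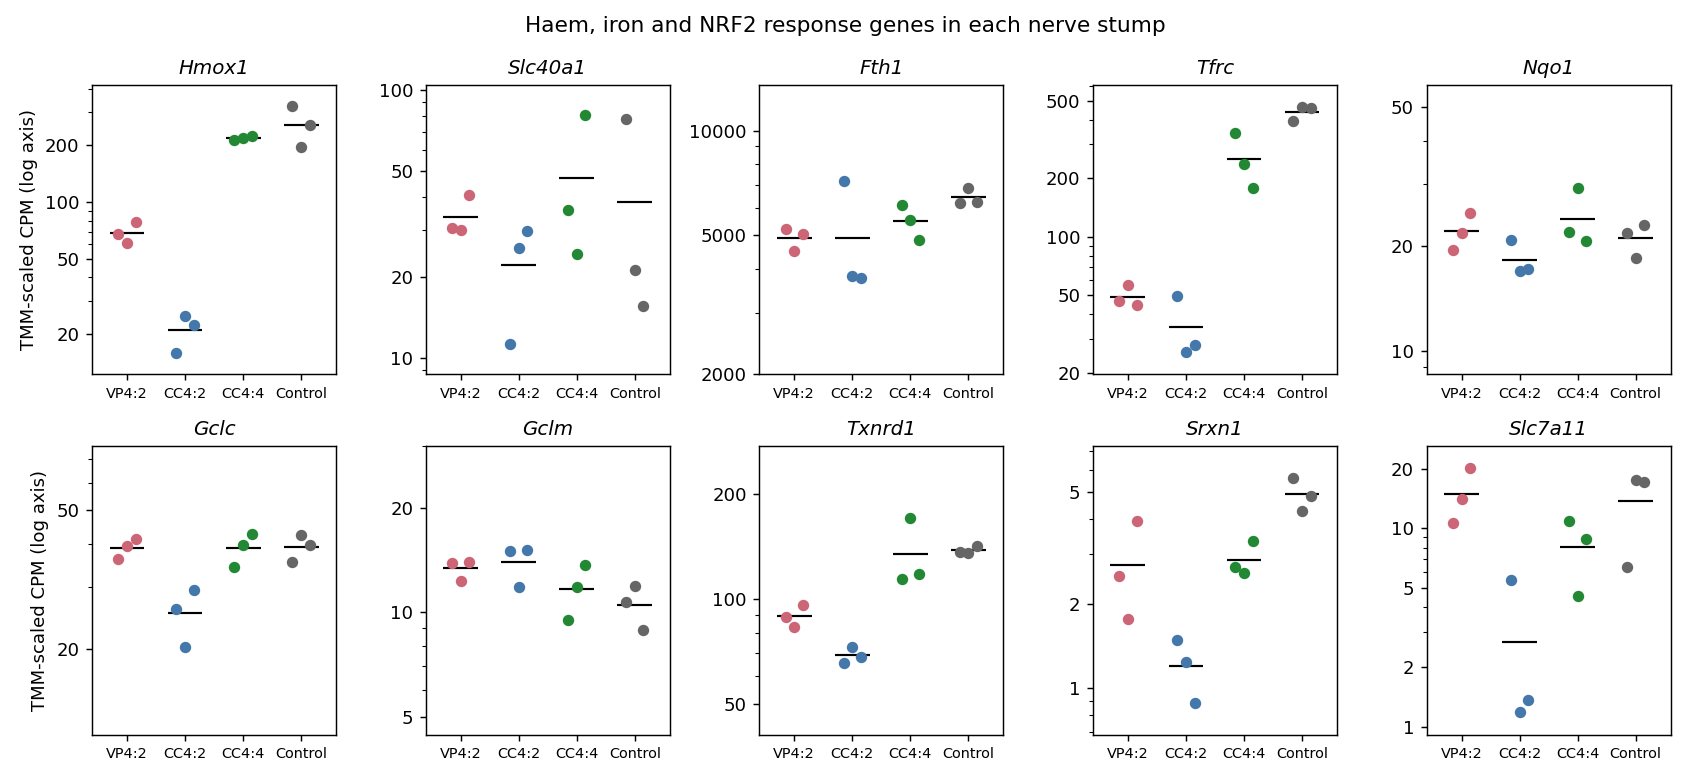
Level of each of the 10 genes in every library, in CPM on a log axis, with VP4:2, CC4:2, CC4:4 and Control from left to right and a line at each group's mean (n = 3). Hmox1 and Tfrc show all VP4:2 and CC4:2 libraries below all CC4:4 and Control libraries. Nqo1 overlaps across groups, and Gclm overlaps between neighbours in rank but not between VP4:2 and Control.

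Hmox1 (ENSRNOG00000014117), the inducible enzyme that opens haem, was lower in both 4:2 groups than in CC4:4 and Control. Its level was 67.9, 60.6 and 78.4 CPM in VP4:2 stumps, 16.0, 24.9 and 22.5 CPM in CC4:2, 214, 218 and 225 CPM in CC4:4 and 322, 197 and 256 CPM in Control. The groups rank CC4:2, VP4:2, CC4:4 and Control from low to high, and the libraries of neighbours overlapped only between CC4:4 and Control. The log2 fold change was -3.61 ± 0.22 (SE) for CC4:2 against Control (adjusted p = 7.5e-06) and -3.37 ± 0.22 for CC4:2 against CC4:4 (adjusted p = 1.5e-05). It was 1.71 ± 0.21 for VP4:2 against CC4:2 (adjusted p = 0.001) and -1.91 ± 0.21 for VP4:2 against Control (adjusted p = 0.0011). Verteporfin-loaded stumps thus held more Hmox1 RNA than unloaded 4:2 stumps and less than controls. In bulk tissue, fewer cells of a type and less RNA per cell cannot be told apart, here and in all that follows. In the NovaSeq libraries alone, the VP4:2 differences were 1.65 against CC4:2 (adjusted p = 0.064) and -1.99 against Control (adjusted p = 0.073). The CC4:4 level of 219 ± 5.35 CPM was not called against the Control level of 258 ± 62.6 CPM (SD, n = 3 each), with a log2 fold change of -0.24 ± 0.20 and an adjusted p of 0.98.

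Tfrc (ENSRNOG00000001766), the receptor that takes in transferrin-bound iron and is known to be high in dividing cells, was low in VP4:2 and CC4:2 alike, where its libraries overlapped. It stood at 46.6, 56.7 and 44.4 CPM in VP4:2, 49.8, 25.6 and 27.7 CPM in CC4:2, 342, 236 and 178 CPM in CC4:4 and 395, 465 and 460 CPM in Control. Every VP4:2 and CC4:2 library lay below every CC4:4 library, and every CC4:4 library below every Control library. The log2 fold change against Control was -3.16 ± 0.31 for VP4:2 (adjusted p = 9e-04) and -3.68 ± 0.31 for CC4:2 (adjusted p = 3.6e-05), and that of CC4:2 against CC4:4 was -2.87 ± 0.30 (adjusted p = 0.00014). In the NovaSeq libraries alone, VP4:2 against Control gave -3.04 with an adjusted p of 0.058. VP4:2 and CC4:2 differed by 0.52 ± 0.28 (adjusted p = 0.32). The -0.81 ± 0.28 of CC4:4 against Control had an unadjusted p of 0.016 and an adjusted p of 0.93.

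Ferritin heavy chain, Fth1 (ENSRNOG00000022619), the subunit that oxidises iron for storage, was not called in any of the 5 comparisons. Its level was 5210, 4500 and 5040 CPM in VP4:2, 7150, 3820 and 3780 CPM in CC4:2, 6100, 5520 and 4860 CPM in CC4:4 and 6200, 6830 and 6250 CPM in Control. CC4:2 replicate 1 was the highest library of all and the other CC4:2 libraries the lowest. CC4:2 against Control was -0.39 ± 0.26 (adjusted p = 0.25), and without CC4:2 replicate 1 it was -0.76 with an adjusted p of 0.02. Its deposited counts were not whole in 12 of 12 libraries, as happens where reads are shared with near-identical copies, so its level is uncertain.

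Ferritin light chain, Ftl1, is the other subunit of the ferritin shell and was looked up after its values were seen. The symbol has 2 rows, 1 of them at 0 in all libraries. The other (ENSRNOG00000064385) held 1380, 944 and 1340 CPM in VP4:2, 507, 484 and 525 CPM in CC4:2, 1970, 2110 and 2030 CPM in CC4:4 and 2250, 1260 and 2250 CPM in Control. CC4:2 was below all other groups with no overlap. The log2 fold change was -1.93 ± 0.25 for CC4:2 against Control (adjusted p = 0.00025), -2.01 ± 0.25 for CC4:2 against CC4:4 (adjusted p = 0.00029) and 1.27 ± 0.24 for VP4:2 against CC4:2 (adjusted p = 0.011). VP4:2 against Control was -0.66 ± 0.24 and was not called (adjusted p = 0.08). The alternative settings were not run for this row.

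Slc40a1 (ENSRNOG00000003872) encodes ferroportin, the exporter of iron from macrophages and other cells, and varied widely within groups. It stood at 30.5, 30.0 and 40.7 CPM in VP4:2, 11.3, 25.8 and 29.7 CPM in CC4:2, 35.8, 24.5 and 80.5 CPM in CC4:4 and 78.0, 21.2 and 15.6 CPM in Control. Control replicate 1 and CC4:4 replicate 3 were the high libraries. No comparison was called, the smallest adjusted p being 0.19 for CC4:2 against CC4:4 (-1.07 ± 0.62). Against Control, the values were -0.19 ± 0.61 for VP4:2 and -0.78 ± 0.61 for CC4:2, and without Control replicate 1 they were 0.88 and 0.28, so no direction can be read for this gene.

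Slc7a11 (ENSRNOG00000010210), the cystine carrier that feeds glutathione synthesis and a target of both NRF2 and ATF4, was low in CC4:2. It held 10.6, 14.0 and 20.1 CPM in VP4:2, 5.50, 1.18 and 1.36 CPM in CC4:2, 10.9, 4.54 and 8.82 CPM in CC4:4 and 6.41, 17.6 and 17.2 CPM in Control. The CC4:2 libraries lay below all VP4:2 and all Control libraries, with replicate 1 well above the other CC4:2 libraries. The difference of CC4:2 from Control was -2.35 ± 0.62 (adjusted p = 0.011) in all libraries, -1.84 (adjusted p = 0.14) in the NovaSeq libraries and -3.42 without CC4:2 replicate 1 (adjusted p = 0.0021). VP4:2 against CC4:2 gave 2.47 ± 0.62 (adjusted p = 0.041). That call was not stable, being lost with platform as a covariate (2.43, adjusted p = 0.064), with the replicate number as a block (2.56, adjusted p = 0.072) and in the NovaSeq libraries (1.88, adjusted p = 0.4). It was also lost without CC4:2 replicate 2 (2.11, adjusted p = 0.14), without CC4:2 replicate 3 (2.15, adjusted p = 0.11), and without VP4:2 replicate 1, 2 or 3 (2.66, 2.51 and 2.19, adjusted p = 0.069, 0.078 and 0.15). Without CC4:2 replicate 1 it was 3.54 (adjusted p = 0.0093). A fit of only the 6 libraries compared called 1 of the 10 genes, and 1156 of all 15049 genes tested in it. Whether that gene was Slc7a11 is not given here. CC4:2 against CC4:4 gave -1.59 ± 0.61 (adjusted p = 0.061) in all libraries and -2.66 without CC4:2 replicate 1 (adjusted p = 0.0072). VP4:2 against Control was not called (0.12 ± 0.58, adjusted p = 0.91).

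Glutamate-cysteine ligase, the first enzyme of glutathione synthesis, has a catalytic subunit, Gclc (ENSRNOG00000006302), and a modifier subunit, Gclm (ENSRNOG00000013409). Gclc held 36.2, 39.5 and 41.2 CPM in VP4:2, 26.0, 20.3 and 29.5 CPM in CC4:2, 34.4, 39.7 and 42.7 CPM in CC4:4 and 35.4, 42.5 and 39.8 CPM in Control. The CC4:2 libraries were below all 9 others, and those of the other groups overlapped. The log2 fold change was -0.63 ± 0.15 for CC4:2 against Control (adjusted p = 0.0069) and -0.62 ± 0.15 for CC4:2 against CC4:4 (adjusted p = 0.0085). In the NovaSeq libraries the second of these was -0.70 with an adjusted p of 0.05 and was not called. VP4:2 against CC4:2 gave 0.62 ± 0.15 (adjusted p = 0.036), and that call was lost in the NovaSeq libraries (0.71, adjusted p = 0.19) and in a fit of the 6 libraries compared (0.64, adjusted p = 0.055). It was also lost without CC4:2 replicate 1 or 2 (0.64 and 0.49, adjusted p = 0.08 and 0.094) and without VP4:2 replicate 1, 2 or 3 (0.67, 0.61 and 0.58, adjusted p = 0.072, 0.086 and 0.14).

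Gclm did not follow its partner. It held 13.9, 12.3 and 14.0 CPM in VP4:2, 15.0, 11.8 and 15.1 CPM in CC4:2, 9.50, 11.8 and 13.7 CPM in CC4:4 and 10.7, 11.9 and 8.88 CPM in Control, and was the only one of the 10 genes with its lowest mean in Control. No comparison was called, with 0.41 ± 0.18 for CC4:2 against Control (adjusted p = 0.09) and 0.35 ± 0.18 for VP4:2 against Control (adjusted p = 0.2). Within a library, the log2 ratio of Gclc to Gclm averaged 1.53 ± 0.15 in VP4:2, 0.84 ± 0.10 in CC4:2, 1.74 ± 0.10 in CC4:4 and 1.89 ± 0.23 in Control (SD, n = 3 each). The ratio depends on transcript length as well as level, so only its differences between groups are read. It was 1.05 lower in CC4:2 than in Control, with no overlap, and stayed 0.92 to 1.14 lower with any 1 library left out. With 3 against 3 libraries an exact permutation test cannot give a p below 0.1, so this ratio and those below are given without one.

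Txnrd1 (ENSRNOG00000009088) encodes cytosolic thioredoxin reductase. Its level was 88.7, 83.2 and 96.0 CPM in VP4:2, 65.5, 72.9 and 68.1 CPM in CC4:2, 114, 171 and 118 CPM in CC4:4 and 136, 135 and 142 CPM in Control. Only CC4:4 and Control overlapped. In CC4:2, Txnrd1 fell by 1.00 ± 0.15 on the log2 scale against Control (adjusted p = 0.00061) and by 0.96 ± 0.15 against CC4:4 (adjusted p = 0.00097). VP4:2 against Control was -0.63 ± 0.15 (adjusted p = 0.019), a call lost in the NovaSeq libraries (-0.64, adjusted p = 0.19), without Control replicate 3 (-0.58, adjusted p = 0.078) and without VP4:2 replicate 1 or 2 (-0.62 and -0.58, adjusted p = 0.068 and 0.077). The 0.38 ± 0.15 of VP4:2 over CC4:2 was not called (adjusted p = 0.18), though the libraries did not overlap.

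Srxn1 (ENSRNOG00000031167), the sulfiredoxin that repairs over-oxidised peroxiredoxins, was sparsely counted, with 17 to 28 counts per library in CC4:2 and 55 to 100 in Control. Its level was 2.52, 1.77 and 3.95 CPM in VP4:2, 1.48, 1.24 and 0.887 CPM in CC4:2, 2.70, 2.57 and 3.35 CPM in CC4:4 and 5.62, 4.29 and 4.84 CPM in Control. The CC4:2 libraries were below all others and the Control libraries above all others. CC4:2 fell against Control by 2.03 ± 0.34 on the log2 scale (adjusted p = 0.00096) and against CC4:4 by 1.25 ± 0.33 (adjusted p = 0.013). In the NovaSeq libraries CC4:2 against CC4:4 was -0.97 with an adjusted p of 0.12. VP4:2 against CC4:2 gave 1.19 ± 0.33 (adjusted p = 0.062), and 1.42 without VP4:2 replicate 2 (adjusted p = 0.039). VP4:2 against Control gave -0.84 ± 0.32 (adjusted p = 0.09), and -1.19 without VP4:2 replicate 3 (adjusted p = 0.048).

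Nqo1 (ENSRNOG00000012772), the quinone reductase commonly used as a readout of NRF2, was not called in any comparison. It held 19.4, 21.8 and 24.8 CPM in VP4:2, 20.7, 16.9 and 17.1 CPM in CC4:2, 21.9, 29.3 and 20.6 CPM in CC4:4 and 21.8, 18.4 and 22.9 CPM in Control, and each group overlapped with its neighbour in rank. Its estimates ran from -0.39 ± 0.17 for CC4:2 against CC4:4 (adjusted p = 0.086) to 0.27 ± 0.17 for VP4:2 against CC4:2 (adjusted p = 0.38). Within a library, the log2 ratio of Hmox1 to Nqo1 was 3.40 lower in CC4:2 than in Control (0.19 ± 0.49 and 3.59 ± 0.26, SD, n = 3 each) and 1.95 lower in VP4:2 than in Control, with no overlap in either.

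**Figure D2:**
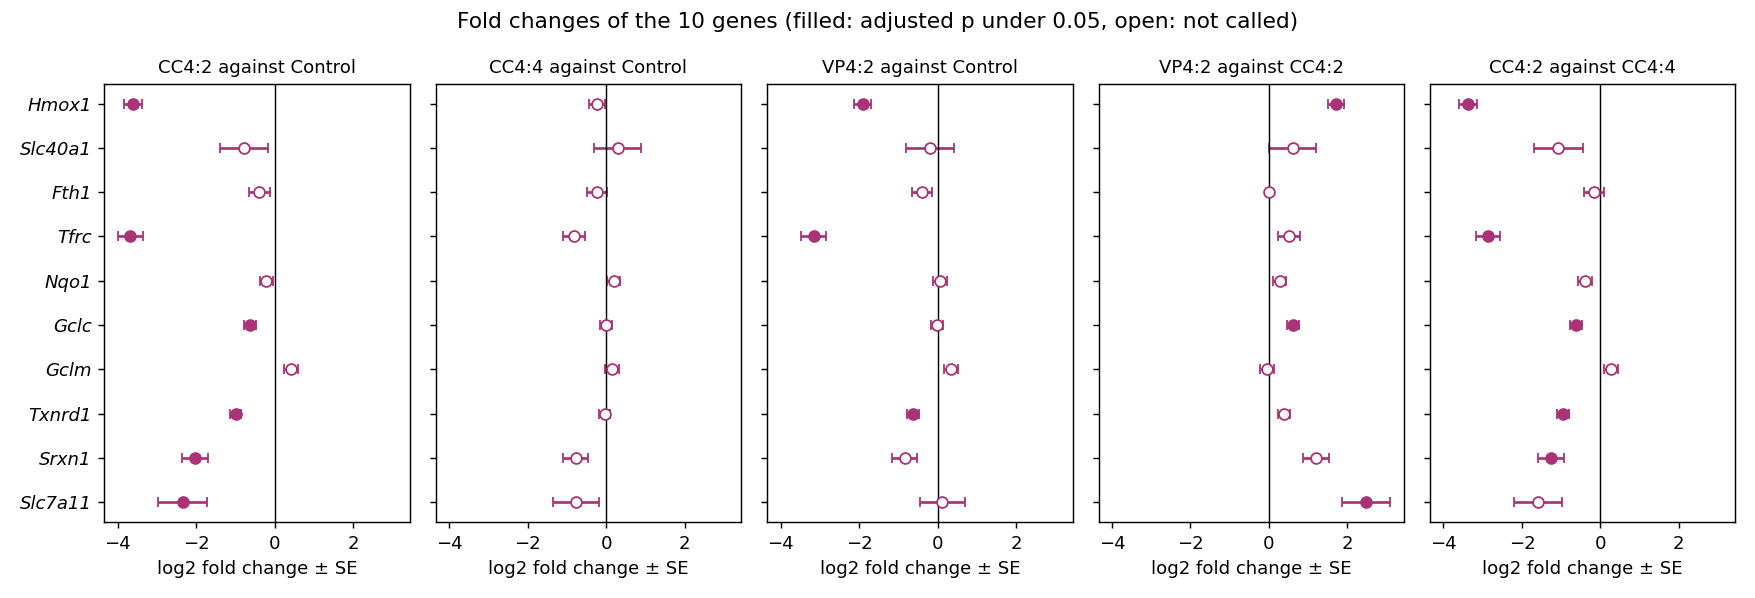
Log2 fold change of the 10 genes in the 5 comparisons, with bars of 1 SE and filled points where the adjusted p was under 0.05 (the Fth1 point of VP4:2 against CC4:2, at 0, has no bar). Hmox1 and Tfrc lie at -3.61 and -3.68 in CC4:2 against Control, whereas no point is filled in CC4:4 against Control.

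Markers of several cell types moved in the same comparisons. The 15 macrophage markers summed to 4970 to 6170 CPM in VP4:2, 1510 to 1850 in CC4:2, 3660 to 5000 in CC4:4 and 5010 to 5110 in Control, with none of the 15 at 0. Of the 15, 11 fell in CC4:2 against Control, 10 fell in CC4:2 against CC4:4, 10 rose in VP4:2 against CC4:2 and 1 fell in VP4:2 against Control. Of all tested genes, 23.2% were lower and 20.3% higher in CC4:2 against Control, and 9.57% lower and 9.3% higher in VP4:2 against Control. In CC4:2 against CC4:4, 20.7% were lower, and in VP4:2 against CC4:2, 5.23% were higher. Neutrophil markers (9 genes, 7 tested) summed to 18.0 to 23.7 CPM in VP4:2, 15.5 to 23.5 in CC4:2, 274 to 704 in CC4:4 and 267 to 535 in Control, Ngp being at 0 in VP4:2. Of the 7 tested, 6 fell and 1 rose against Control in both CC4:2 (median -4.69) and VP4:2 (median -4.96). The 12 cycling cell markers summed to 240 to 292 CPM in VP4:2, 155 to 175 in CC4:2, 345 to 604 in CC4:4 and 320 to 449 in Control. Of these 12, 10 fell and 1 rose in CC4:2 against Control, and 1 fell and 0 rose in VP4:2 against Control. Schwann cell, adipocyte and some nerve fibroblast markers were instead higher in the 4:2 groups than in Control. All 10 Schwann cell and myelin markers rose in CC4:2 against Control (median 3.20), with sums given above, and 8 of 10 rose in VP4:2 against Control (median 2.52). The 8 adipocyte markers summed to 1430 to 3030 CPM in VP4:2, 1100 to 3200 in CC4:2, 419 to 1930 in CC4:4 and 428 to 586 in Control, with none at 0. Of these, 5 rose in VP4:2 against Control (median 3.28) and 8 in CC4:2 against Control (median 4.17). The 8 nerve fibroblast markers summed to 16500 to 20800 CPM in VP4:2, 22400 to 52400 in CC4:2, 38700 to 57500 in CC4:4 and 12400 to 55200 in Control, and 2 rose in VP4:2 and 4 in CC4:2 against Control. Of 7 endothelial markers, 2 rose in CC4:2 against Control and 0 in VP4:2 against Control. T and B cell markers (9 genes) went the other way and summed to 337 to 1190 CPM in VP4:2, 18.0 to 202 in CC4:2, 2320 to 5180 in CC4:4 and 836 to 6450 in Control. Of these 9, all 9 fell in CC4:2 against Control (median -5) and 8 fell in VP4:2 against Control (median -2.37). Red blood cell markers (7 genes, 6 tested) overlapped across all groups, at 591 to 1670, 643 to 2690, 351 to 3000 and 183 to 2180 CPM in the same order, and 1 of 6 was called in CC4:2 against Control and 0 in the other comparisons.

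Relative to the macrophage markers, the genes parted. The log2 difference between Hmox1 and the mean of the 15 macrophage markers in the same library was -1.41 ± 0.10 in VP4:2, -1.75 ± 0.21 in CC4:2, 0.43 ± 0.22 in CC4:4 and 0.32 ± 0.36 in Control. Relative to these markers Hmox1 was thus 1.72 lower in VP4:2 and 2.06 lower in CC4:2 than in Control, without overlap. VP4:2 exceeded CC4:2 by 0.34 on this scale, against 1.71 for Hmox1 itself. Tfrc on the same scale was 3.00 lower in VP4:2 and 2.20 lower in CC4:2 than in Control, and relative to the cycling cell markers 2.63 and 2.29 lower, again without overlap. Txnrd1 behaved otherwise, at -1.03 ± 0.05 in VP4:2, -0.03 ± 0.12 in CC4:2, -0.30 ± 0.54 in CC4:4 and -0.56 ± 0.07 in Control. In CC4:2 it was thus 0.53 higher than in Control relative to these markers, without overlap, but overlapped with CC4:4. Fth1 was also higher on this scale in CC4:2 than in Control (1.08, without overlap). The differences of Slc40a1 (1.02) and Slc7a11 (-0.98) between these groups came with overlap. The part of neutrophil, lymphocyte, Schwann cell, adipocyte and fibroblast abundance in these results was not tested.

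**Figure D3:**
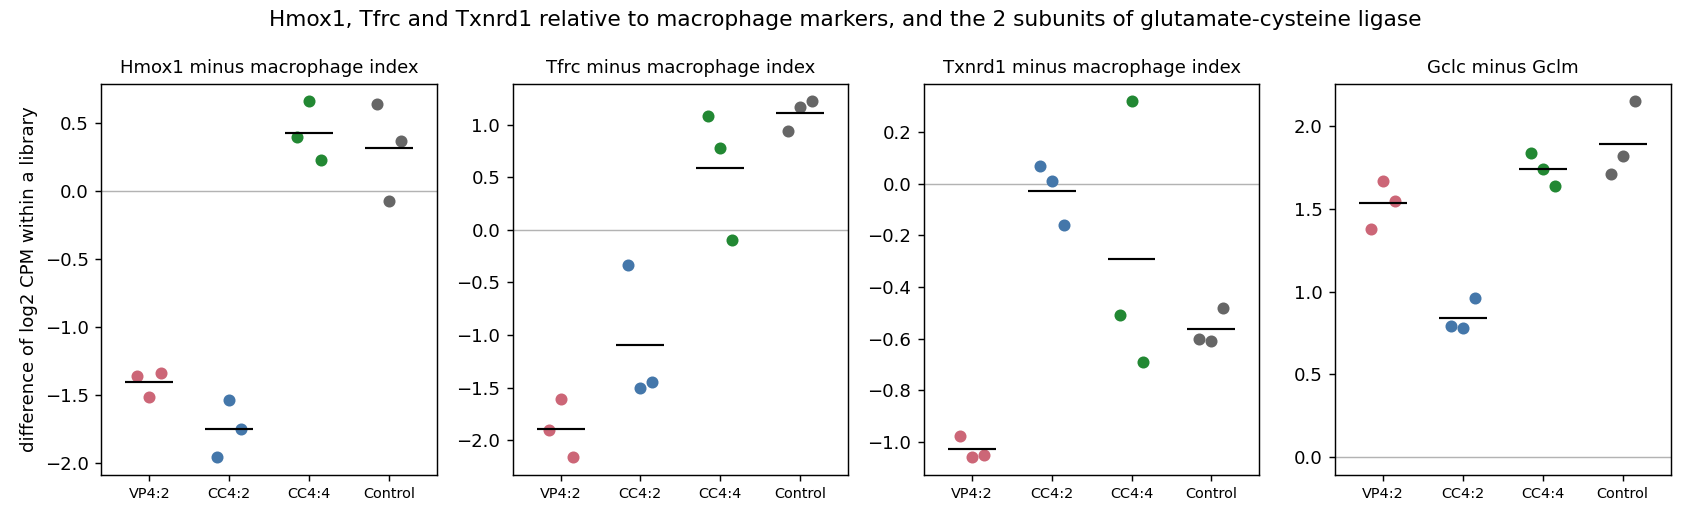
Log2 difference within each library between Hmox1, Tfrc or Txnrd1 and the mean of 15 macrophage markers, and between Gclc and Gclm, with VP4:2, CC4:2, CC4:4 and Control from left to right (points are libraries, lines are means of 3). Hmox1 and Tfrc remain lower in both 4:2 groups than in Control. Txnrd1 has its highest mean in CC4:2, overlapping with CC4:4, and Gclc over Gclm is lowest in CC4:2.

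Lists of other genes of these pathways are set against the share of all tested genes, which in CC4:2 against Control was 20.3% higher and 23.2% lower, with a median of -0.05. Of 7 tested NRF2 regulators, 1 rose, 2 fell and 4 were not called in that comparison (median log2 fold change -0.18), a split near that of all tested genes. Nfe2l2, which encodes NRF2 itself, fell by 0.82 ± 0.12 on the log2 scale (110 ± 6.13 CPM in CC4:2 and 194 ± 18.5 CPM in Control, adjusted p = 6e-04). Its relative Nfe2l1, known to control proteasome genes, rose by 0.99 ± 0.15 (adjusted p = 0.00056). Keap1 (0.14 ± 0.18, adjusted p = 0.56) and Bach1 (-0.18 ± 0.14, adjusted p = 0.31) were not called. In VP4:2 against CC4:2, 0 of the 7 were called, where 5.23% of all tested genes were higher and 0.999% lower.

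Of 19 other NRF2 target enzymes, 4 rose, 5 fell and 10 were not called in CC4:2 against Control, with a median of 0.09, again near the 20.3% higher and 23.2% lower of all tested genes. In CC4:2 against CC4:4, 3 rose and 7 fell, where 18.5% of all tested genes were higher and 20.7% lower. The thioredoxin gene Txn1 fell by 1.51 ± 0.23 (39.7 ± 12.8 CPM in CC4:2 and 113 ± 15.3 CPM in Control, adjusted p = 0.00055), as did the peroxiredoxin Prdx1 (-1.09 ± 0.21, adjusted p = 0.0024). The epoxide hydrolase Ephx1 rose by 1.67 ± 0.28 (adjusted p = 0.00098). In VP4:2 against CC4:2, 3 rose and 0 fell (median 0), where 5.23% of all tested genes were higher and 0.999% lower.

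In the glutathione and thioredoxin cycle list, 8 of 16 genes fell, 1 rose and 7 were not called in CC4:2 against Control (median -0.52), where 23.2% of all tested genes were lower and 20.3% higher. In VP4:2 against CC4:2, 3 of 16 rose and 0 fell (median 0.22), where 5.23% of all tested genes were higher. Prdx5, a peroxiredoxin of mitochondria and peroxisomes, averaged 296 ± 34.8 CPM in VP4:2, 62.9 ± 8.79 CPM in CC4:2 and 399 ± 117 CPM in Control. It fell by 2.67 ± 0.25 in CC4:2 against Control (adjusted p = 4.9e-05) and rose by 2.24 ± 0.24 in VP4:2 against CC4:2 (adjusted p = 0.00049), with both calls held under all 14 alternatives. Glutaredoxin, Glrx, fell by 2.10 ± 0.23 (adjusted p = 0.00012) and glutathione peroxidase 1, Gpx1, by 1.38 ± 0.23 (adjusted p = 0.00097) in CC4:2 against Control. Txnip, the thioredoxin inhibitor, was the gene that rose (1.00 ± 0.22, adjusted p = 0.005, and 0.11 in the NovaSeq libraries).

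Among 19 genes of haem uptake, breakdown and synthesis, 4 rose, 5 fell and 10 were not called in CC4:2 against Control (median -0.07), a split near that of all tested genes. In VP4:2 against CC4:2, 1 rose and 0 fell (median 0), near the 5.23% of all tested genes that were higher and 0.999% that were lower. Alas1, the first enzyme of haem synthesis, fell by 1.12 ± 0.16 (26.7 ± 2.89 CPM in CC4:2 and 58.3 ± 13.4 CPM in Control, adjusted p = 0.00044). Blvra, a biliverdin reductase acting just after haem oxygenase, fell by 0.86 ± 0.23 (adjusted p = 0.012). Hmox2, the constitutive haem oxygenase, was at 29.4 ± 2.90 CPM in CC4:2 and 30.3 ± 4.90 CPM in Control and was not called (-0.04 ± 0.15, adjusted p = 0.85). Neither was Cd163, the macrophage receptor for haemoglobin bound to haptoglobin (0.18 ± 0.47, adjusted p = 0.79), which is also in the macrophage list.

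Of 18 tested genes of iron uptake, storage and control, 4 rose, 6 fell and 8 were not called in CC4:2 against Control (median -0.07), where 20.3% of all tested genes were higher and 23.2% lower. Slc11a1, the metal pump of phagocyte vesicles, averaged 8.95 ± 1.12 CPM in CC4:2 and 108 ± 34.8 CPM in Control (-3.59 ± 0.31, adjusted p = 4.2e-05). Lcn2, a neutrophil and epithelial protein that binds iron-carrying siderophores, fell by 3.99 ± 0.53 (adjusted p = 0.00032), and the iron sensor Fbxl5, which marks iron regulatory proteins for breakdown, by 1.40 ± 0.19 (adjusted p = 0.00031). Transferrin, Tf, was not called (0.25 ± 0.20, adjusted p = 0.34). In VP4:2 against CC4:2, 2 of the 18 rose and 0 fell, where 5.23% of all tested genes were higher and 0.999% lower. Slc11a1 rose there by 2.01 ± 0.30 (adjusted p = 0.0026, and 0.089 in the NovaSeq libraries).

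A list of 12 genes, Atf4 and targets of its protein, split into 2 higher, 4 lower and 6 not called in CC4:2 against Control (median -0.51), where 20.3% of all tested genes were higher and 23.2% lower. ATF4 also controls Slc7a11, which is not in that list. Chac1 (-3.7 ± 0.85, adjusted p = 0.0057) is in both that list and the glutathione and thioredoxin cycle list, and is counted as lower in each. Mthfd2, a mitochondrial folate enzyme, fell by 1.99 ± 0.22 (adjusted p = 0.00014), whereas the serine synthesis enzyme Psat1 rose by 1.21 ± 0.26 (adjusted p = 0.0038). In VP4:2 against Control, 1 rose and 4 fell (median -0.47), where 9.3% of all tested genes were higher and 9.57% lower. Atf3 rose there by 1.49 ± 0.29 (81.5 ± 14.2 CPM in VP4:2 and 29.0 ± 6.71 CPM in Control, adjusted p = 0.0081, and 0.094 in the NovaSeq libraries).

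**Figure D4:**
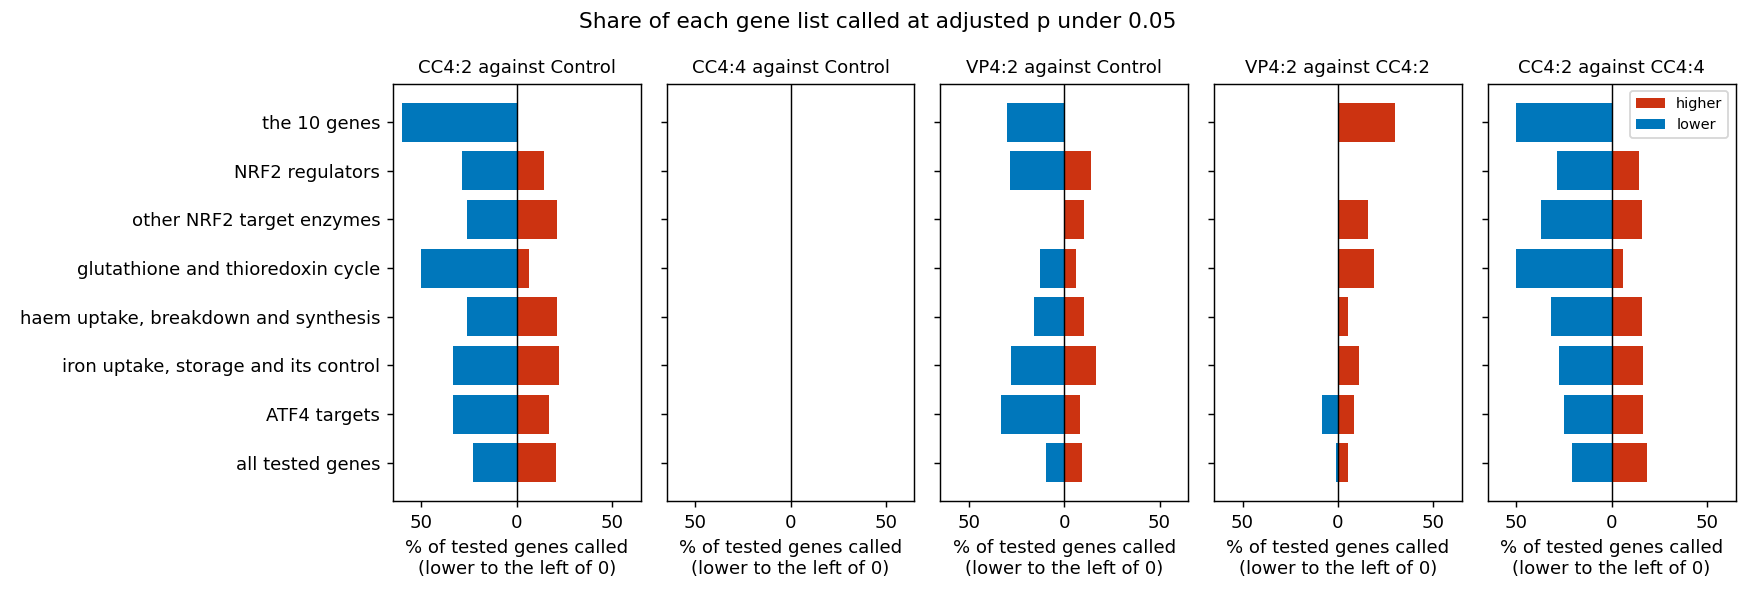
Percentage of tested genes called in each list, lower to the left of 0 and higher to the right, in the 5 comparisons, with all tested genes in the bottom row. In CC4:2 against Control the 10 genes have 6 lower and none higher, and the glutathione and thioredoxin list has 8 of 16 lower.

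The genes that varied most like each of the 10 over the 12 libraries were found by Pearson correlation of log2 CPM, as a description over libraries that share group and composition. For Hmox1 they were Cib1 (r = 0.991), Slc43a2 (0.988) and Limd2 (0.987). For Tfrc they were the chemokine Cxcl2 (0.982), Cmas (0.971) and Cxcl1 (0.97), and for Slc7a11 the myeloid receptors Clec12a (0.943) and Cd300lf (0.923) and Plekhm3 (0.912). Gclc was most like the endosomal RNA sensor Tlr8 (0.95), Gclm most like Tmem106b (0.95), and Txnrd1 most like Ddx39a (0.983). Fth1 had its own pseudogene Fth1-ps5 (0.901) among its nearest. Among the 10 genes themselves, Hmox1 ran with Txnrd1 (0.94) and Tfrc (0.90) and against Gclm (-0.66), and Gclc and Gclm were only weakly related (-0.17).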

How the data were processed

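Members and gene lists were chosen with earlier results of these data known. The authors deposited expected counts for each gene (9.44% to 11.12% of values in a library were not whole), with no normalization recorded. HISAT2, StringTie, RSEM and DESeq2 are named per the submitters' processing notes. Their roles and versions, the genome build and the annotation are not given in the sources used here. All 12 files held the same table, and 11 were not used. Counts were rounded and tested with edgeR 4.0.16 (R 4.3.3): TMM scaling, filterByExpr, quasi-likelihood test, 1 fit of all 12 libraries with group as the only term, 8 residual degrees of freedom, Benjamini-Hochberg over 15712 genes. SE is the fold change's size over the square root of F. Levels are TMM-scaled CPM, and correlations used a prior count of 2. The test was checked on simulated counts. Alternatives, run for the named genes, used RLE scaling, no low-count filter, DESeq2 1.42.0, limma-voom (limma 3.58.1), fewer libraries, platform and a replicate block. Named genes were the 10 members, up to 4 called genes of smallest p per list and comparison, and the 3 nearest per member. The text prints a part of these, chosen after values were seen, as were Keap1, Bach1, Hmox2, Blvra, Cd163, Tf and Ftl1. List symbols with no unique row were left out of counts. RefSeq matched 0 deposited identifiers, so promoters were matched by symbol.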

Additional observations from a re-analysis of the deposited data

How the results depend on the processing

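The 17 called results of the 10 genes were recomputed under 14 alternatives each. Of these 238 values, 212 kept their call and 26 lost it, none changed direction, and 8 of the 17 results never lost their call. Of the 462 values of the 33 results not called, 425 kept direction and stayed uncalled, 6 became called and 31 changed sign. For the other named genes, 927 of 1064 values kept their call. Depth limits Srxn1, at 17 to 28 counts per library in CC4:2.

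In the NovaSeq libraries alone (2 a group), the genes called were 3253 in CC4:2 against CC4:4 (6156 in all libraries), 3220 in CC4:2 against Control (6835), 202 in VP4:2 against CC4:2 (979) and 19 in VP4:2 against Control (2964). The members called there were 3, 5, 0 and 0. Fewer libraries enter this fit. A fit of only the 6 libraries compared called 4363 genes in CC4:2 against Control and 1975 in VP4:2 against Control. In VP4:2 against CC4:2 it called 1156 of 15049 tested genes (979 of 15712 in all libraries) and 1 member (3 in all libraries). DESeq2 called 11 genes in CC4:4 against Control and 1841 in VP4:2 against CC4:2. The cause of these shifts was not tested.

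With 1 library left out, called genes ranged from 0 to 296 in CC4:4 against Control, 466 to 746 in VP4:2 against CC4:2 and 1162 to 4293 in VP4:2 against Control, and called members from 1 to 2 in VP4:2 against CC4:2 and 2 to 4 in VP4:2 against Control.

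Whether the replicate numbers pair the samples cannot be told from these data. With each group's mean taken out, same-numbered libraries of different groups correlated by -0.402 to 0.433 and differently numbered ones by -0.419 to 0.404. On average, 5 of 12 correlated best with their own number. This check cannot decide, as each group has 3 libraries and replicate 3 is always the DNBSEQ-T7 library. The replicate block called 6334, 0, 2505, 853 and 5705 genes in CC4:2, CC4:4 and VP4:2 against Control, VP4:2 against CC4:2 and CC4:2 against CC4:4, and 6, 0, 3, 2 and 5 members.

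The values that changed sign were all uncalled in the fit of all libraries, and those of Slc40a1 were not small (-0.78 in CC4:2 against Control). Fth1 in VP4:2 against CC4:2 was -0.01 with RLE scaling and with DESeq2, -0.17 in the NovaSeq libraries and -0.16 to 0.37 with 1 library left out. Gclc in VP4:2 against Control was 0 without the filter, 0.02 in the 6 libraries and -0.08 to 0.07 with 1 left out. In CC4:4 against Control, the NovaSeq values were -0.06 for Gclm, -0.67 for Slc40a1 and 0.11 for Txnrd1. Slc40a1 in VP4:2 against Control was 0.11 with limma-voom. With 1 library left out, the ranges were -0.08 to 0.08 (Gclc), -0.30 to 1.35 (Slc40a1) and -0.24 to 0.08 (Txnrd1) in CC4:4 against Control, -0.17 to 0 (Gclm) in VP4:2 against CC4:2, -1.12 to 0.28 (Slc40a1) in CC4:2 against Control, and -0.03 to 0.15 (Nqo1), -0.52 to 0.88 (Slc40a1) and -0.22 to 0.35 (Slc7a11) in VP4:2 against Control.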
